A study of Mus musculus with 3 samples.

Results

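Wound-activated and basal keratins were examined in sections of healing mouse skin, as 6 of the 32285 genes counted in each section. The members were taken by gene symbol: *Krt6a*, *Krt6b*, *Krt16* and *Krt17*, the 4 keratins known as wound-activated, and *Krt5* and *Krt14*, the 2 keratins of the basal layer. Spatial gene expression (Visium, a slide of barcoded spots that each capture polyadenylated RNA from a small area of tissue) was measured at skin wound sites on the back of adult C57BL/6J male mice. The full-thickness wounds were made with a biopsy punch, and wound tissue was frozen fresh. There was 1 section for each of Day 3, Day 7 and Day 14 after wounding, all wild-type with no other treatment given in the labels, and no unwounded section was analysed here. With 1 section a day no difference between days could be tested, and each interval below is a 95% interval that covers counting error and not the spread between animals.

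Keratins are the intermediate filament proteins of epithelia, and each filament pairs a type II with a type I chain. KRT5 (type II) and KRT14 (type I) pair in the basal cells of the epidermis, which divide and hold the sheet to the basement membrane. After injury, keratinocytes at the wound edge are known to switch on KRT6A, KRT6B, KRT16 and KRT17 while they migrate and close the gap, and KRT6A, KRT16 and KRT17 are also made in the outer root sheath and companion layer of the hair follicle without injury. On the GRCm38 build the type II genes lay side by side on the minus strand of chromosome 15: *Krt6b* at chr15:101676023-101680287, *Krt6a* at chr15:101689910-101694307 and *Krt5* at chr15:101707070-101712898. The type I genes lay on the minus strand of chromosome 11: *Krt14* at chr11:100203162-100207548, *Krt16* at chr11:100246091-100248902 and *Krt17* at chr11:100256217-100261029. *Krt6a* and *Krt6b* are near-identical copies, and *Krt14*, *Krt16* and *Krt17* are similar in sequence, so reads could be given to the wrong copy or dropped.

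The under-tissue spots of Days 3, 7 and 14 numbered 664, 549 and 697, and held 1772259, 4442962 and 4611723 unique molecular identifiers (UMIs, each standing for 1 captured RNA molecule). Median depths per spot were 1513, 6687 and 4827 UMIs, with the Day 3 section the thinnest. A spot covers several cells, and fewer keratinocytes cannot be told apart from less keratin RNA per cell. Levels are given as UMIs per 1000000 UMIs under tissue (CPM).

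*Krt6a*, *Krt6b* and *Krt16* were at their highest on Day 3. *Krt6a*, a type II keratin of activated keratinocytes, had 860, 654 and 1092 UMIs at Days 3, 7 and 14, which gave 485 CPM (453 to 519), 147 CPM (136 to 159) and 237 CPM (223 to 251). *Krt6b*, its neighbouring copy, had 706, 187 and 3 UMIs, or 398 CPM (369.5 to 429), 42.1 CPM (36.3 to 48.6) and 0.651 CPM (0.134 to 1.90). *Krt16*, the type I partner of the KRT6 chains, had 1097, 942 and 159 UMIs, or 619 CPM (583 to 657), 212 CPM (199 to 226) and 34.5 CPM (29.3 to 40.3). The intervals of the 3 days did not overlap for any of these genes, and *Krt6b* and *Krt16* were lower at each later day while *Krt6a* was lowest on Day 7.

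**Figure D1:**
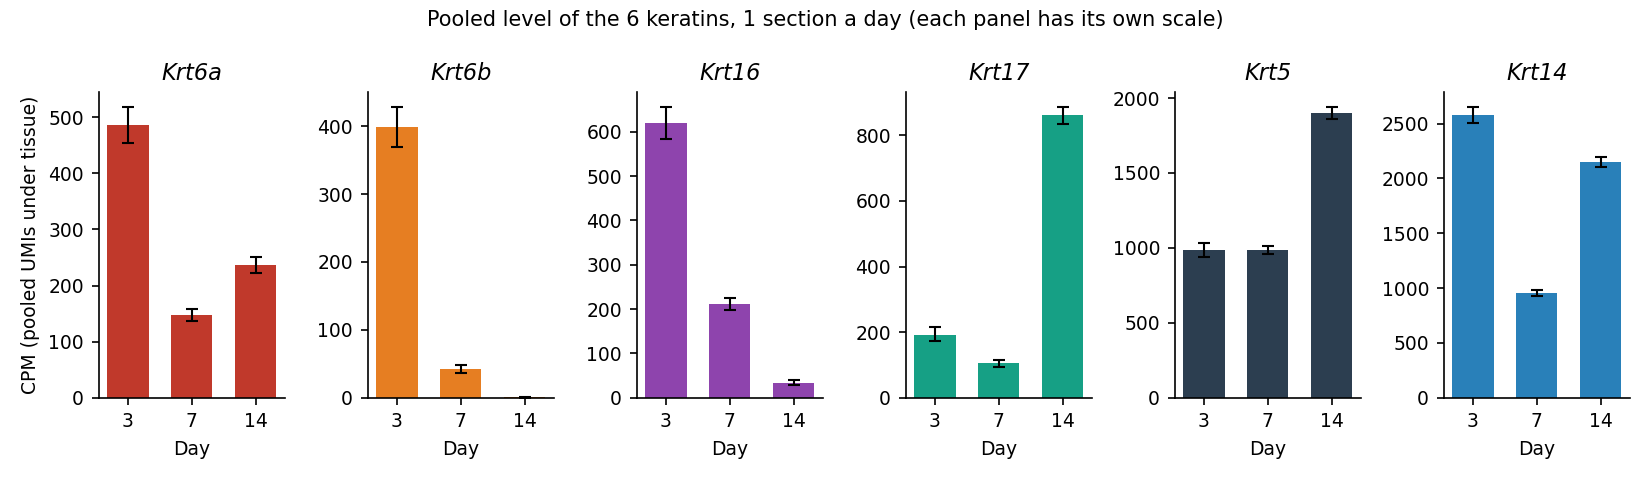
Pooled level of each keratin under tissue in CPM (vertical axis, from 0, a scale for each gene) on Day 3, Day 7 and Day 14 (horizontal axis), 1 section a day, with bars for the 95% counting interval. *Krt6b* reached 398, 42.1 and 0.651 CPM, whereas *Krt17* reached 193, 105 and 861 CPM.

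From Day 3 to Day 7 the CPM of *Krt6b* was 9.46-fold lower (8.04 to 11.2), that of *Krt6a* 3.30-fold lower (2.97 to 3.66) and that of *Krt16* 2.92-fold lower (2.67 to 3.19). With the unmarked spots within 3 spot pitches of the tissue counted in, the log2 ratio of *Krt6b* was -2.57 in place of -3.24. From Day 7 to Day 14 *Krt16* was 6.15-fold lower (5.19 to 7.32) and *Krt6b*, on 3 UMIs, 64.7-fold lower (21.8 to 317). The copies parted at that point, since *Krt6a* was 1.61-fold higher (1.46 to 1.78) on Day 14 than on Day 7. That order of *Krt6a* was not kept when every spot of the slide was counted, marked as tissue or not (log2 ratio -0.02). *Krt6a* UMIs per *Krt6b* UMI went from 1.22 (1.10 to 1.35) on Day 3 to 3.50 (2.97 to 4.14) on Day 7 and 364 (124 to 1768) on Day 14. On Day 14 there were 0.00275 *Krt6b* UMIs for each *Krt6a* UMI (0.000566 to 0.00805), so few *Krt6a* molecules of that section can have been counted as *Krt6b*. How many were dropped as shared was not tested. For the sum of both copies, which does not depend on how reads were split between them, Day 14 stood over Day 7 by a log2 ratio of 0.33 pooled under tissue and -0.23 as the mean over spots of each spot's CPM.

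*Krt17* differed from the other activated keratins in being highest on Day 14. *Krt17*, a type I keratin of wound-edge keratinocytes and of the hair follicle, had 342, 465 and 3969 UMIs at Days 3, 7 and 14, or 193 CPM (173 to 215), 105 CPM (95.4 to 115) and 861 CPM (834 to 888). It was 1.84-fold lower (1.60 to 2.12) on Day 7 than on Day 3, and 8.22-fold higher (7.47 to 9.07) on Day 14 than on Day 7. *Krt17* was therefore the lowest of the 4 activated keratins on Day 3 and the highest on Day 14 in UMIs. UMIs carry each gene's own capture rate, so the order between genes is one of captured molecules.

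The Day 14 section also held far more RNA of the hair follicle list than the other sections. The 10 genes of the hair follicle list summed to 76.7, 77.2 and 5144 CPM at Days 3, 7 and 14, and 5 of them were at 0 on Day 3. *Krt71*, an inner root sheath keratin, had 0, 1 and 6874 UMIs. Other genes of the list were present on all days, with *Sox9* at 45.7, 48.6 and 168 CPM and *Lgr5* at 9.03, 18.5 and 23.0 CPM. The sum of the list therefore does not show that follicles were few on Day 3 and Day 7. In the 138 spots of Day 14 that were richest in the list (20% of spots with at least 500 UMIs), there were 0.613 *Krt17* UMIs per *Krt14* UMI against 0.322 in the other spots, a ratio of 1.90 (1.78 to 2.03). Those spots held 40.9% of the *Krt17* UMIs. Without these Day 14 spots, the log2 ratio of *Krt17* for Day 14 over Day 7 was 2.80, beside 3.04 with all spots, and that of *Krt6a* was 0.48, beside 0.69. This setting did not take out all hair follicle RNA. The other spots still held 9984 UMIs of the list, beside 13731 in the spots left out. A UMI of the list was in 673 of 689 Day 14 spots, which held 99.9% of the *Krt14* UMIs.

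The basal keratins differed from each other in course. *Krt5* had 1750, 4380 and 8776 UMIs at Days 3, 7 and 14, or 987 CPM (942 to 1035), 986 CPM (957 to 1015) and 1903 CPM (1863 to 1943). *Krt14* had 4572, 4235 and 9921 UMIs, or 2579.8 CPM (2506 to 2656), 953 CPM (925 to 982) and 2151 CPM (2109 to 2194). In the pooled counts *Krt5* was at the same CPM on Day 3 and Day 7 within counting error (log2 ratio from -0.08 to 0.08), while its partner *Krt14* was 2.71-fold lower (2.60 to 2.82) on Day 7. The *Krt5* ratio was 0.35 as the mean over spots of each spot's CPM, 0.23 without the 20% of spots highest in the hair follicle list and 0.13 with the unmarked border spots counted in, all outside that interval. On Day 14 *Krt5* was 1.93-fold (1.86 to 2.0) and *Krt14* 2.26-fold (2.18 to 2.34) higher than on Day 7. Between Day 3 and Day 14 *Krt14* was 1.2-fold lower on Day 14 (1.16 to 1.24), with a log2 ratio of -0.26 over all spots and -0.19 without the hair-rich spots of Day 14. Leaving out the 20% of spots highest in the hair follicle list in every section gave 0.27. On Day 3 only 81 spots held a UMI of that list, and they held 52.3% of the *Krt14* UMIs, so that setting took out *Krt14*-rich spots there.

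Of the members, only *Krt5* is shown with its promoter (RefSeq, GRCm38.p6, chr15:101712856-101713155, minus strand, from 250 bases before to 50 bases after the start site). No such window was found for *Krt6a*, *Krt6b*, *Krt16* and *Krt17*, and that of *Krt14* began inside the annotated gene. The capitals mark the letters ATAAAA, a form of the TATA box, which begin at position -29 from the start site:

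Krt5 promoter: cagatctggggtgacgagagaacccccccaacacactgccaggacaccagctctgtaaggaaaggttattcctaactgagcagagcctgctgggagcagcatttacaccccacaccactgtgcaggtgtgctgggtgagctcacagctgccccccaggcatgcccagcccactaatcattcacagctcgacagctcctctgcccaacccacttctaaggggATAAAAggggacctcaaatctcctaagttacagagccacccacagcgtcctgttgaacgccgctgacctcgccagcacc

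ATAAAA, searched on both strands, was in 18.5% of 32851 promoter windows of that length. The canonical TATAAA, in 13.6% of windows, was not in this one, which says nothing about the factors that bind there.

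A change was counted at 2-fold, among genes with at least 50 UMIs over both sections. From Day 3 to Day 7, 4 of the 6 members (*Krt6a*, *Krt6b*, *Krt16* and *Krt14*) were lower, beside 6.49% of 10541 genes, and 0 were higher, beside 8.04%. From Day 7 to Day 14, *Krt17* and *Krt14* were higher, beside 10.9% of 11746 genes, and *Krt6b* and *Krt16* were lower, beside 7.34%. Between Day 3 and Day 14, *Krt17* was higher, beside 14.4% of 10955 genes, and *Krt6a*, *Krt6b* and *Krt16* were lower, beside 6.83%. The median gene differed by log2 0.04, 0.13 and 0.18 in the 3 comparisons, beside log2 ratios of the members from -9.26 to 3.04. The 3 comparisons share sections and are not independent of each other.

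Other keratinocyte genes were also lower on Day 7. Of the 10 basal and hemidesmosome genes, 5 were at least 2-fold lower on Day 7 than on Day 3 and 0 higher, with a median log2 ratio of -0.97. *Krt15*, another basal keratin, was at 940.0, 663 and 1299 CPM at Days 3, 7 and 14, and *Col17a1*, a hemidesmosome collagen, at 324, 238 and 590.5 CPM. Of the 10 desmosome and keratin linker genes, 5 were lower on Day 7 (median -1.17) and 9 were higher on Day 14 than on Day 7 (median 1.71). *Dsp*, which ties keratin filaments to desmosomes, was at 596, 129 and 707 CPM. Of the 9 suprabasal genes that were counted, 5 were lower on Day 7 (median -1.29) and 9 higher on Day 14 (median 1.39), with *Krt1*, a keratin of differentiating cells, at 594, 509 and 1315 CPM. *Krt14* thus shared with these lists' medians the lower level on Day 7 and the higher level on Day 14 than on Day 7. *Krt6b* and *Krt16* did not, as both were lower again on Day 14. Between Day 3 and Day 14 the basal, desmosome and suprabasal medians were 0.20, 0.48 and 0.34, while *Krt14* was at -0.26.

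The wound-edge list was mixed. On Day 7, 3 of its 8 counted genes were at least 2-fold lower than on Day 3 and 0 were higher (median log2 ratio -0.28). On Day 14, 2 of 9 were higher than on Day 7 and 4 lower (median 0.07), and between Day 3 and Day 14, 5 of 9 were lower and 2 higher (median -1.18). *Gjb2*, a gap junction protein of activated keratinocytes, was at 89.7, 29.5 and 215.5 CPM, and *Itga5*, a fibronectin receptor subunit that other wound cells also make, at 80.1, 96.6 and 35.3 CPM. *Stat3*, a transcription factor of many cell types, was at 88.6, 137 and 144 CPM. Chosen after their values were seen, *Plaur*, the urokinase receptor, was at 105, 38.0 and 14.1 CPM, *Sprr1b*, a cornified envelope protein, at 56.4, 49.7 and 2.60 CPM, and *Fosl1*, an AP-1 subunit, at 21.4, 1.35 and 0.651 CPM on 38, 6 and 3 UMIs. All 3 were lower on Day 14 than on Day 3, as were *Krt6b* and *Krt16*, but they were chosen with this course known. *Gjb2* and *Stat3* of the same list were higher on Day 14 than on Day 3. Of the other keratins of epithelia, 3 of 5 were lower on Day 7 (median -1.08) and 4 of 6 higher on Day 14 (median 1.67), and *Krt77*, a keratin of sweat ducts and skin epithelium, was at 671, 708 and 2402 CPM.

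To compare keratins within the basal keratin RNA of each section, UMIs were divided by those of *Krt14*. The same ratio may be set between days, while ratios of different genes also carry their capture rates. *Krt6b* was at 0.154 UMIs per *Krt14* UMI (0.142 to 0.167) on Day 3, 0.0442 (0.0379 to 0.0511) on Day 7 and 0.000302 (6.23e-05 to 0.000884) on Day 14. *Krt6a* was at 0.188 (0.175 to 0.202), 0.154 (0.142 to 0.168) and 0.110 (0.103 to 0.117). *Krt16* was at 0.240 (0.224 to 0.256), 0.222 (0.207 to 0.239) and 0.0160 (0.0136 to 0.0187). Per *Krt14* UMI, then, *Krt16* on Day 7 and Day 3 differed by less than counting error (log2 ratio -0.11, from -0.24 to 0.02), whereas *Krt6b* was already lower on Day 7, and *Krt6a* was lower at each later day. The *Krt16* result rested on *Krt14*, whose CPM was itself 2.71-fold lower on Day 7. It did not hold per *Krt5* UMI. *Krt16* had 1097 UMIs beside 1750 of *Krt5* on Day 3, and 942 beside 4380 on Day 7, a lower level.

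**Figure D2:**
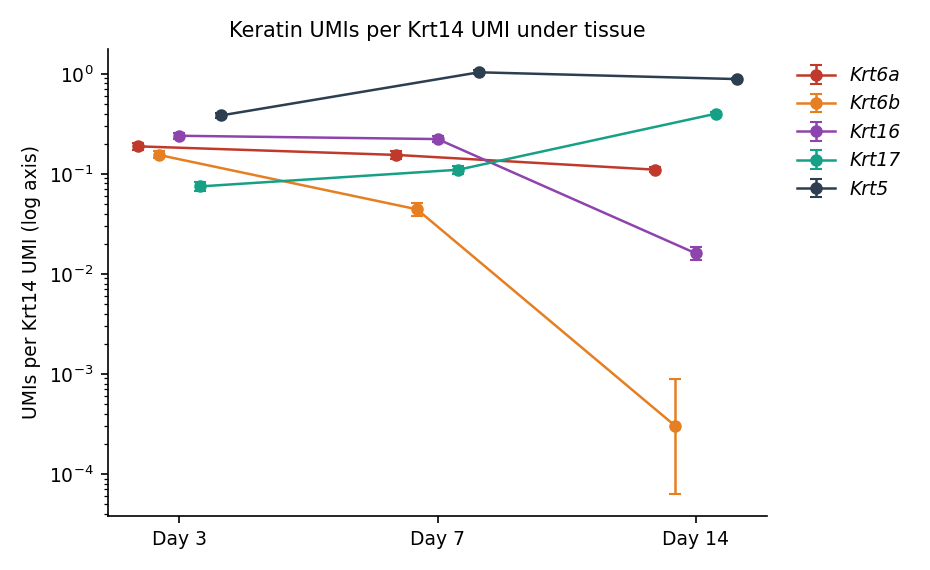
UMIs of *Krt6a*, *Krt6b*, *Krt16*, *Krt17* and *Krt5* per *Krt14* UMI under tissue (log axis) on Day 3, Day 7 and Day 14, 1 section a day, with bars for the 95% counting interval. *Krt6b* went from 0.154 to 0.0442 and 0.000302, *Krt16* from 0.240 and 0.222 to 0.0160, and *Krt17* from 0.0748 and 0.110 to 0.400.

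*Krt17* was at 0.0748 UMIs per *Krt14* UMI (0.0668 to 0.0835) on Day 3, 0.110 (0.0996 to 0.121) on Day 7 and 0.400 (0.386 to 0.415) on Day 14. *Krt16* UMIs per *Krt17* UMI accordingly went from 3.21 (2.84 to 3.63) and 2.03 (1.81 to 2.27) to 0.0401 (0.0340 to 0.0470). *Krt5* was at 0.383 UMIs per *Krt14* UMI (0.362 to 0.405) on Day 3, 1.03 (0.991 to 1.08) on Day 7 and 0.885 (0.859 to 0.910) on Day 14. The ratio of the basal pair was therefore the lowest in the section in which *Krt6a*, *Krt6b* and *Krt16* were the highest.

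The share of spots with these keratins followed the same order once depth was made equal. Each spot with at least 1000 UMIs was thinned to 1000. At least 1 UMI of *Krt6a*, *Krt6b* or *Krt16* was then found in 208 of 426 spots on Day 3 (48.8%, 44.0 to 53.7), 162 of 525 on Day 7 (30.9%, 26.9 to 35.0) and 131 of 679 on Day 14 (19.3%, 16.4 to 22.5). In epithelial spots (at least 2 UMIs of *Krt5* and *Krt14* after thinning) the shares were 63.2% of 201, 36.0% of 264 and 23.1% of 451. In muscle-rich spots, which should lack keratins, they were 18.0% of 122, 18.4% of 87 and 5.0% of 140, with median depths of 1822, 2460.0 and 2932 UMIs before thinning, beside 3776, 7185 and 6471 in epithelial spots. In the spots that were neither epithelial nor muscle-rich, the shares were 56.2% (46.2 to 65.9), 27.7% (21.5 to 34.7) and 18.0% (11.4 to 26.4), and these intervals overlapped those of the epithelial spots (56.1 to 69.9, 30.2 to 42.1 and 19.2 to 27.2). The epithelial share was thus above that of muscle-rich spots on each day, and was not set apart from that of the remaining spots. Unthinned shares of all spots were 69.0%, 80.6% and 58.0%, so the order of Day 3 and Day 7 depended on thinning. The thinning left 238, 24 and 18 shallower spots out.

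*Krt17* was again highest on Day 14 in these shares, with 10.8%, 10.5% and 45.9% of spots at Days 3, 7 and 14, beside 3.28%, 1.15% and 14.3% of muscle-rich spots. *Krt6b* was in 21.8% and 5.33% of thinned spots on Day 3 and Day 7. On Day 14 it was in 0 of 679, which allows a share of up to 0.442%.

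The position of the activated keratins was set against the wound bed. Wound-bed spots were the 20% of each section's spots with the largest share of UMIs from a list of 10 matrix and repair genes with no keratin (*Tnc*, *Fn1*, *Spp1*, *Arg1*, *Timp1*, *Postn*, *Lrrc15*, *Adam12*, *Cthrc1* and *Col12a1*). Spots within 3 spot pitches (the distance between neighbouring spots) of a wound-bed spot were called near. The list summed to 2341, 8328 and 1742 CPM at Days 3, 7 and 14, on 4149, 36999 and 8034 UMIs, so the bed of Day 3 rested on the fewest molecules.

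Per *Krt14* UMI, *Krt6a*, *Krt6b* and *Krt16* together were higher near the wound bed on each day. On Day 3 there were 0.832 of their UMIs per *Krt14* UMI in 319 near spots and 0.270 in 201 far spots, a ratio of 3.08 (2.80 to 3.39). The values were 0.521 in 403 near and 0.243 in 136 far spots on Day 7, a ratio of 2.14 (1.91 to 2.40), and 0.140 in 626 near and 0.0643 in 63 far spots on Day 14, a ratio of 2.18 (1.80 to 2.67). The Day 14 far group was small, and with a wound bed of 10% of spots that log2 ratio was 0.44 in place of 1.13. The level was lower with each step of distance on Day 3, from 0.997 in the bed through 0.80, 0.723, 0.550 and 0.319 to 0.220 beyond 5 pitches. On Day 7 it was 0.606 in the bed, between 0.466 and 0.517 up to 3 pitches, 0.351 up to 5 pitches and 0.164 beyond. On Day 14 it was 0.158 in the bed and 0.0648 over 3 to 5 pitches. *Krt14* itself was lower in the bed than farther out on Day 7 (497 CPM, and 2213 CPM beyond 5 pitches). On Day 14 *Krt14* was at 1398 CPM in the bed and 3012 CPM over 3 to 5 pitches. The ratios per *Krt14* UMI therefore do not give the direction per UMI of all genes.

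**Figure D3:**
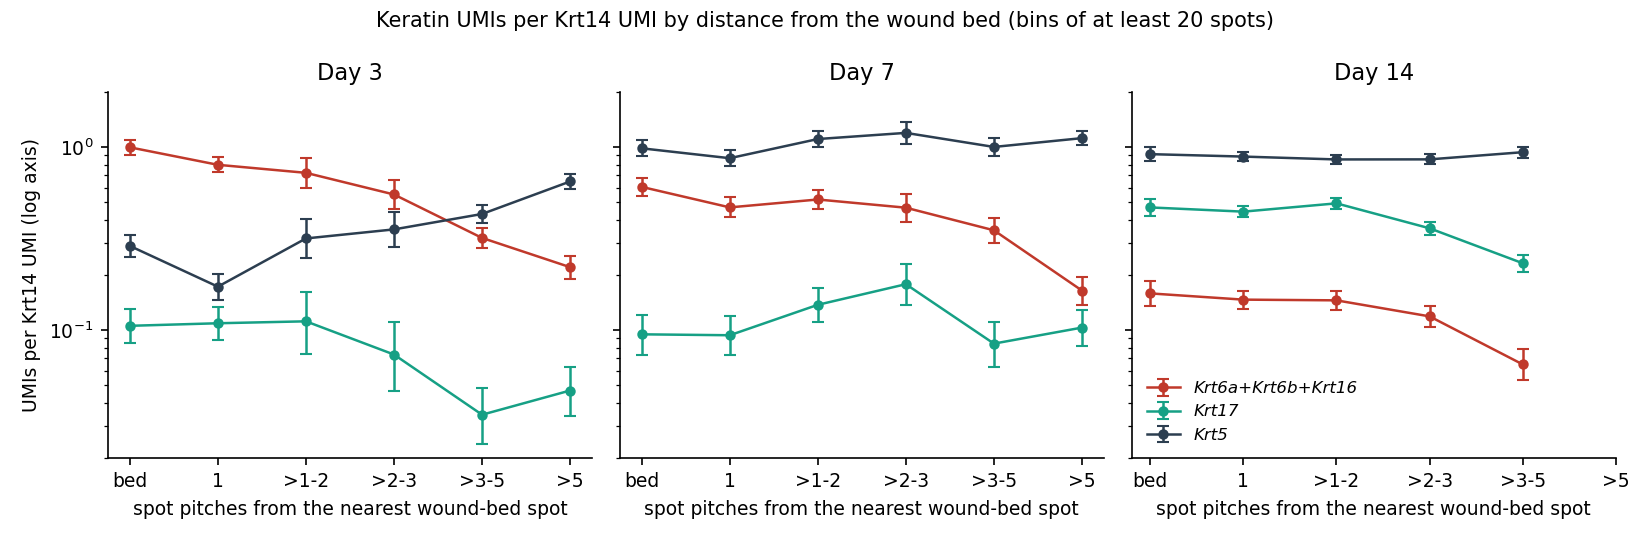
UMIs of *Krt6a*, *Krt6b* and *Krt16* together, of *Krt17* and of *Krt5* per *Krt14* UMI (log axis) against distance in spot pitches from the nearest wound-bed spot, with 95% counting intervals, for bins of at least 20 spots of each section. The sum went from 0.997 in the bed to 0.220 beyond 5 pitches on Day 3, and *Krt5* from 0.288 to 0.648.

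Per *Krt14* UMI each of these genes was higher near the bed on Day 3, with near over far ratios of 3.57 (2.99 to 4.27) for *Krt6a*, 3.16 (2.62 to 3.83) for *Krt6b* and 2.74 (2.37 to 3.16) for *Krt16*. *Krt17* per *Krt14* UMI was also higher near the bed, 2.55-fold (1.98 to 3.31) on Day 3, 1.25-fold (1.02 to 1.53) on Day 7 and 1.89-fold (1.71 to 2.10) on Day 14. The Day 7 direction of *Krt17* turned with near set at 2 pitches (log2 ratio -0.05). *Krt5* ran against the others on Day 3, at 0.255 UMIs per *Krt14* UMI near the bed and 0.539 far from it, a ratio of 0.473 (0.429 to 0.522). On Day 7 and Day 14 that ratio was 0.95 (0.894 to 1.01) and 0.937 (0.888 to 0.989), close to 1, and the Day 14 value turned to log2 0.22 with a wound bed of 30% of spots. *Krt16* on Day 14 rested on 14 far UMIs, and its ratio of 2.30 (1.33 to 4.32) turned with the same setting (log2 -0.92).

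The activated and the basal keratins were both more concentrated in few spots on Day 3 than on the later days. The 10 of 664 spots richest in *Krt6a*, *Krt6b* and *Krt16* held 40.3% of their UMIs on Day 3, and the 10 richest held 11.2% on Day 7 and 17.1% on Day 14. The 10 spots richest in *Krt14* held 29.7%, 12.8% and 14.4% of its UMIs, and those richest in *Krt5* 28.4%, 13.4% and 16%. All 10 of the Day 3 spots lay in or next to the wound bed, beside 37.7% of all spots and 8 of the 10 spots richest in *Krt14*. On Day 7 it was 6 of 10, beside 41.0% of all spots, and on Day 14 1 of 10, beside 54.7%, with 1 of the 10 *Krt14*-richest spots on each of these days. The spot of Day 3 with the most activated keratin, next to the bed, held 98 *Krt6a*, 81 *Krt6b*, 108 *Krt16*, 33 *Krt17*, 56 *Krt5* and 401 *Krt14* UMIs among 11813 UMIs. The corresponding spot of Day 7 held 18, 4, 20, 1, 31 and 24 of them in that order, and that of Day 14 held 14, 0, 0, 83, 50 and 83. The Day 14 spot thus had *Krt17* and *Krt6a* with no *Krt16* or *Krt6b*.

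**Figure D4:**
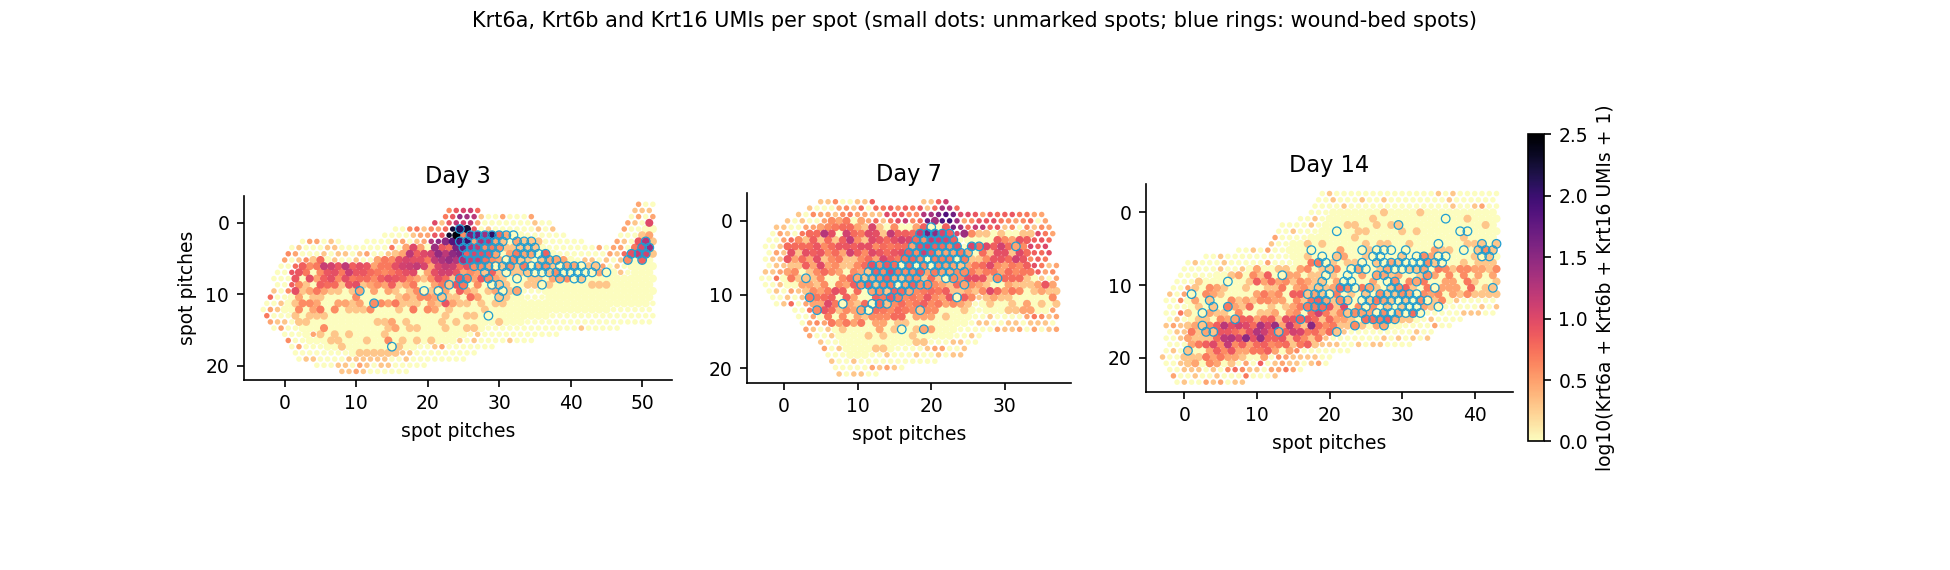
Spots of each slide placed in spot pitches along both axes, coloured by the UMIs of *Krt6a*, *Krt6b* and *Krt16* in the spot, with blue rings for wound-bed spots and small dots for spots not marked as tissue. On Day 3 the 10 richest under-tissue spots held 40.3% of these UMIs and lay in or next to the wound bed.

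Spots rich in *Krt6a*, *Krt6b* and *Krt16* on Day 3 had little *Krt5* for their *Krt14*. The 10 richest spots had 0.201 *Krt5* UMIs per *Krt14* UMI (0.174 to 0.231), and the other spots 0.446 (0.420 to 0.474). On Day 7 the values were 0.843 (0.689 to 1.03) and 1.04 (1.0 to 1.09), and on Day 14 0.670 (0.60 to 0.749) and 0.903 (0.877 to 0.931). The spots were chosen for activated keratin and not for *Krt5*, though both share the depth of the spot.

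Much of the activated keratin lay in spots that the tissue mask left out. Unmarked spots held 58.1% of the *Krt6a*, *Krt6b* and *Krt16* UMIs of the slide on Day 3, 66.6% on Day 7 and 32.1% on Day 14, beside 49.0%, 59.2% and 50.6% of all UMIs. Most of it lay more than 3 pitches from the mask, 78.6%, 67.7% and 75.6% of the unmarked UMIs of the 3 genes, spread over 3918, 4119 and 3950 spots with a median of 81, 406 and 315 UMIs and at most 21, 17 and 4 UMIs of the 3 genes in a spot. On Day 7 the 10 richest unmarked spots within 3 pitches of the mask held 130 *Krt6a*, 135 *Krt6b*, 210 *Krt16*, 91 *Krt5* and 263 *Krt14* UMIs. Their *Krt5* per *Krt14* UMI was 0.346 (0.270 to 0.441), against 1.2 (1.12 to 1.28) in the other 314 spots of that border, and they had 1.04 *Krt6b* UMIs per *Krt6a* UMI against 0.372. The under-tissue spots of Day 7 as a whole had 0.286 *Krt6b* UMIs per *Krt6a* UMI. The 10 richest under-tissue spots of Day 3 had 0.756 *Krt6b* UMIs per *Krt6a* UMI and the other 654 spots 0.873. On Day 3 the value was thus not higher in the richest spots, unlike in the unmarked border spots of Day 7. Whether these unmarked spots were tissue was not tested. Not all unmarked spots were shallow. On Day 14 a spot 8 pitches from the mask held 32354 UMIs, and a spot at 49.9 pitches held 10917. With the border spots counted in, *Krt6a* plus *Krt6b* was at 0.238 per *Krt14* UMI on Day 7, beside 0.199 under tissue.

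The activated keratins were also compared between spots rich and poor in other cell types' genes, 20% of each section's spots against the rest. In the spots richest in suprabasal genes each of the 4 activated keratins except *Krt6b* on Day 14, which had 3 UMIs, was lower per *Krt14* UMI on every day, and *Krt6a* was at 0.617 (0.538 to 0.709), 0.562 (0.469 to 0.672) and 0.640 (0.565 to 0.724) times its level in the rest. Per UMI of all genes the direction was the other, with *Krt6a* at 798 CPM in suprabasal-rich spots against 322 CPM in the rest on Day 3, 220.1 against 131 on Day 7 and 334 against 200.2 on Day 14. In the hair-rich spots of Day 14 *Krt6a* per *Krt14* UMI was 1.81-fold higher (1.60 to 2.04), like *Krt17*, while *Krt16* was at 1.19 (0.829 to 1.68) and *Krt5* at 1.04 (0.993 to 1.09) times the rest. On Day 3 the hair follicle list had 136 UMIs in all, too few to place follicles.

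**Figure D5:**
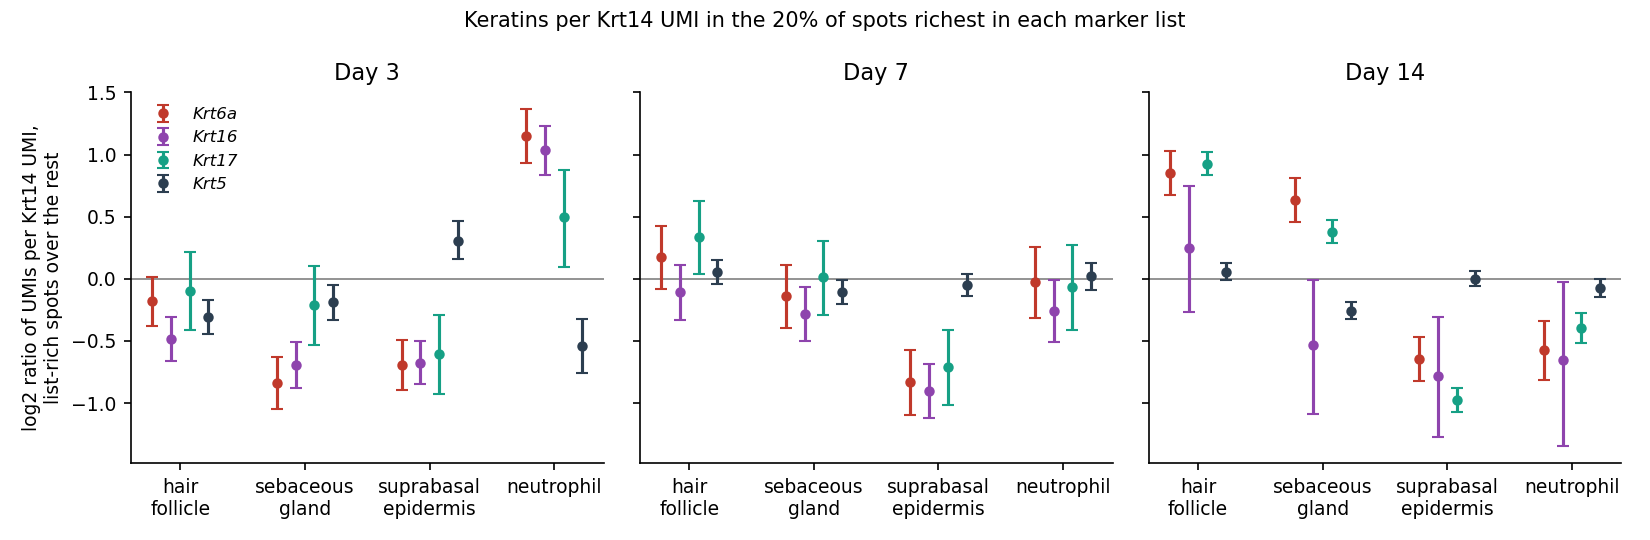
Log2 ratio of UMIs per *Krt14* UMI in the 20% of spots richest in each marker list over the other spots (vertical axis), for the hair follicle, sebaceous gland, suprabasal epidermis and neutrophil lists on Day 3, Day 7 and Day 14, with 95% counting intervals. *Krt6a* was above 0 in neutrophil-rich spots on Day 3 (1.15) and below 0 on Day 14 (-0.57).

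Genes of the neutrophil list moved with the activated keratins on Day 3. The neutrophil list summed to 2395, 167 and 109 CPM at Days 3, 7 and 14, with 0, 1 and 0 of its 10 genes at 0. Its leading genes differed between days. *S100a8* and *S100a9* had 1103 and 1521 of its 4245 UMIs on Day 3, and *G0s2* had 378 of 740 on Day 7. On Day 14 these 3 genes had 79, 73 and 110 of 504 UMIs. Whether the spots rich in the list held neutrophils was not tested. In the neutrophil-rich spots of Day 3 *Krt6a* was 2.22-fold (1.91 to 2.58), *Krt6b* 2.58-fold (2.19 to 3.03), *Krt16* 2.05-fold (1.79 to 2.34) and *Krt17* 1.41-fold (1.07 to 1.84) higher per *Krt14* UMI than in the rest, and *Krt5* was at 0.688 (0.590 to 0.799) times the rest. On Day 7 the intervals of *Krt6a*, *Krt6b* and *Krt17* in neutrophil-rich spots all took in 1, and *Krt16* was at 0.836 (0.703 to 0.991) times the rest. The part of neutrophils in the Day 3 result was not tested.

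Across spots, correlations of log-scaled UMIs describe which keratins lay together, and share library and depth. *Krt6a* and *Krt6b* had a Pearson r of 0.51 over 520 spots on Day 3 and 0.15 over 539 on Day 7, and none is given for Day 14, where *Krt6b* had 3 UMIs. *Krt5* and *Krt14* had an r of 0.52, 0.60 and 0.68. *Krt17* and the hair follicle list had an r of 0.12, 0.11 and 0.59. The sum of the activated keratins was a different mix on each day, with *Krt17* at 342 of its 3005 UMIs on Day 3 and 3969 of 5223 on Day 14. The genes most like this sum were *Actb* (0.49), *H2-K1*, *Sfn*, *Col1a1* and *Apoe* on Day 3, *Lgals7* (0.49), *Cfd*, *Fabp4*, *Krt15* and *Scd1* on Day 7, and *Lgals7* (0.62), *Krt15*, *Actb*, *Krt27* and *Ptma* on Day 14. Those most like the basal sum were *H2-K1* (0.61), *Col1a1*, *Lgals7*, *Col1a2* and *Actb* on Day 3, *Lgals7* (0.62), *Cfd*, *Krt1*, *Krt10* and *Lor* on Day 7, and *Lgals7* (0.66), *Krt15*, *Krt77*, *Actb* and *Dsp* on Day 14. *Lgals7*, a galectin of stratified epithelia, was thus on 5 of the 6 lists, and *Krt27*, an inner root sheath keratin, stood on the activated list of Day 14 alone.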

How the data were processed

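Visium libraries of 3 sections of mouse skin wounds (Day 3, Day 7 and Day 14, 1 section each) were used. The authors deposited raw UMI counts per gene and spot, made with Space Ranger 1.3.0 on mm10 per the labels and methods, together with a mark for the spots under tissue. How reads shared by keratin copies were treated is not given in the sources used here.

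Counts were pooled over under-tissue spots and divided by all UMIs there. Intervals were exact Poisson for levels, exact conditional binomial for ratios and Clopper-Pearson for shares, at 95%; a count of 0 was given the limit of 3 counts. There was no replicate and no test was made. Spots with at least 1000 UMIs were thinned to 1000 for shares, and spots with at least 500 UMIs were used for distances, list-rich spots and correlations (log of 1 plus UMIs per 10000). The scripts were tested on simulated data. All 4992 positional barcodes of a slide recur on the other slides by its layout and identify no cell. Gene positions were taken from GENCODE M21 (32158 of 32285 identifiers matched) and the *Krt5* promoter from RefSeq.

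The members and lists were chosen with earlier results of these data known. Named were the 6 members, the spot richest in activated keratin, and genes among the 3 with the most UMIs of each list. The 5 genes most correlated with each keratin sum, among those with at least 100 UMIs in the section, were named too. *Fosl1*, *Sprr1b*, *Plaur*, *Sox9* and *Lgr5* were named after their values were seen. Alternatives were other scalings (edgeR 4.0.16, trimmed mean of M values; DESeq2 1.42.0, size factors only), gene minimums, thinning depths, denominators, spot sets, distances and wound-bed sizes. Leaving out hair-rich spots (of Day 14 or of every section), muscle-rich spots or the richest spot, adding unmarked border spots, and *Krt5* with *Krt14* as the denominator of the distance ratio were added after seeing the data. Python 3.11.15, numpy 2.4.6, scipy 1.17.1, pandas 2.3.3, matplotlib 3.10.9 and R 4.3.3 were used.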

Additional observations from a re-analysis of the deposited data

Results flagged for a closer look

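*Krt6a*, *Krt6b* and *Krt16* were counted in spots outside the tissue mask, which the comparisons between days did not use. At Days 3, 7 and 14 such spots held 3693, 3556 and 594 UMIs of the 3 genes, of which 78.6%, 67.7% and 75.6% lay more than 3 pitches from the mask. On Day 3 the 10 richest unmarked spots within 3 pitches of the mask had 0.292 *Krt5* UMIs per *Krt14* UMI (0.243 to 0.349), against 0.626 (0.547 to 0.716) in the other spots of that border.

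Spots rich in the neutrophil list differed from the rest in opposite directions on different days. The list was led by other genes on the later days than on Day 3, so these spots need not hold the same cells. The log2 ratio of *Krt6a* per *Krt14* UMI was 1.15 on Day 3 and -0.57 on Day 14. That of *Krt16* was 1.03, -0.26 and -0.66 at Days 3, 7 and 14, and that of *Krt17* was 0.49 on Day 3 and -0.39 on Day 14. In spots rich in sebaceous gland genes *Krt6a* per *Krt14* UMI was lower on Day 3 (log2 ratio -0.84) and higher on Day 14 (0.63). The differences between days in these ratios are between single sections and were not tested.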

How the results depend on the processing

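No paired analysis was possible because each day had 1 section and no test was made. The cause of each move below was not tested. In log2, the activated sum (*Krt6a*, *Krt6b*, *Krt16* and *Krt17*) had ratios of -1.74 (Day 7 to Day 3), 1.16 (Day 14 to Day 7) and -0.58 (Day 14 to Day 3), and the basal sum (*Krt5* and *Krt14*) of -0.88, 1.06 and 0.18. On Day 14 *Krt17* had 3969 of the 5223 UMIs of the activated sum. Without *Krt17*, the ratios of *Krt6a*, *Krt6b* and *Krt16* together were -1.90, -0.56 and -2.47, so the sign for Day 14 to Day 7 rested on *Krt17*. As the mean of spot CPM the activated sum gave -1.40, 0.73 and -0.67 and the basal sum -0.43 and 0.65 in the first 2 comparisons. With every spot of the slide the activated sum gave 0.50 and -1.32 in the last 2 and the basal sum 0.74 and -0.15, the last with its direction turned. In those 2 comparisons, with edgeR's scaling the activated sum gave 1.06 and -0.68 and the basal sum 0.97 and 0.087, and with DESeq2 size factors they gave 1.04 and -0.71, and 0.95 and 0.054. Without muscle, haemoglobin and mitochondrial genes in the total, the basal sum gave 1.11 for Day 14 over Day 7. Without the hair-rich spots of Day 14 the activated sum gave 0.94 and -0.80 in the last 2 and the basal sum 1.13 and 0.25. The other Day 14 spots still held 9984 UMIs of the hair follicle list. Without the 20% of spots highest in that list in every section, the activated sum gave -1.51, 1.02 and -0.49 and the basal sum -0.53, 1.2 and 0.67; on Day 3 the list had 136 UMIs in 81 spots with 52.3% of the *Krt14* UMIs, so the first and last of these do not stand for a removal of hair. With unmarked border spots the activated sum gave -1.47, 0.78 and -0.69 and the basal sum -0.71 and 0.88 in the first 2. Of single members, *Krt6a* turned for Day 14 over Day 7 with every spot (-0.017), *Krt6a* plus *Krt6b* turned with the mean of spot CPM (-0.23), every spot (-0.48) and border spots (-0.17), and *Krt14* turned for Day 14 over Day 3 under that setting in every section (0.27; -0.19 with Day 14 alone). *Krt5* for Day 7 over Day 3, at -0.0024 with an interval over 0, went to 0.35 with the mean of spot CPM, 0.23 without the spots highest in the hair list in every section and 0.13 with border spots. *Krt6b* for Day 7 over Day 3 went from -3.24 to -2.57 with border spots, *Krt6b* for Day 14 over Day 7 from -6.02 to -6.62 with border spots and -5.42 without the spots highest in the hair list in every section, *Krt16* for Day 14 over Day 3 from -4.17 to -3.54 with the mean of spot CPM, and, with every spot of the slide, *Krt6a* for Day 14 over Day 3 from -1.04 to -1.65.

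Per *Krt14* UMI with every spot of the slide, *Krt6a* plus *Krt6b* was at 0.441, 0.260 and 0.103 at Days 3, 7 and 14, and *Krt16* at 0.287 and 0.284 at Days 3 and 7. With border spots, the Day 7 values were 0.238 and 0.250. With *Krt5* as the denominator, *Krt6a* plus *Krt6b* was at 0.895 on Day 3 and 0.125 on Day 14, and *Krt16* at 0.627 on Day 3. On Day 7 *Krt16* had 942 UMIs beside 4380 of *Krt5*, a lower level than on Day 3. The share of spots with *Krt6a*, *Krt6b* or *Krt16* at Days 3, 7 and 14 was 35.6%, 16.7% and 11% at 500 UMIs, 67.4%, 51.4% and 32.3% at 2000 UMIs, 23.2%, 8.0% and 2.80% with at least 2 UMIs, and 69.0%, 80.6% and 58.0% unthinned. The correlation of activated and basal sums was 0.43, 0.16 and 0.33 after thinning to 1000 UMIs, beside 0.53, 0.48 and 0.60.

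The log2 ratio of *Krt6a*, *Krt6b* and *Krt16* per *Krt14* UMI near over far from the wound bed was 1.48, 0.66 and 0.44 at Days 3, 7 and 14 with a bed of 10% of spots, and 2.23, 1.39 and 0.48 with 30%. It was 0.87 and 0.65 at Days 7 and 14 with near set at 2 pitches, 1.57 and 1.97 with 5 pitches, and 1.92 on Day 3 with *Krt5* and *Krt14* as the denominator. Near over far turned for *Krt17* on Day 7 at 2 pitches (-0.053), and on Day 14 for *Krt16* and *Krt5* with a bed of 30% (-0.92 and 0.22) and at 5 pitches (-1.01 and 0.39). An alternative was called unmoved if it lay within the counting interval of the value given. For a correlation the limit was 0.1, and for a number of genes past 2-fold it was 1.5-fold. A turn could be counted only for day ratios and near over far ratios whose interval did not take in equality. Levels per *Krt14* UMI, shares and numbers of genes cannot change sign, and correlations were never counted as turned. Over the 115 alternatives of the main results, 46 were unmoved, 68 moved further with no change of sign, and 1 turned. Over the 459 for single members, pairs and numbers of genes, 290 were unmoved, 159 moved further and 10 turned. In 4 of the 159 the sign changed without being counted as a turn. These were the 3 of *Krt5* above, and the correlation of *Krt6a* with *Krt14* on Day 7 after thinning (-0.0073 in place of 0.29).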
